A study of Rattus norvegicus with 71 samples.

Results

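Genes that give the diencephalon and the midbrain their identity were followed in the brains of postnatal day 2 (PND2) rats whose dams carried maternal autoantibodies. The list holds 34 gene symbols, chosen by name but with earlier results of these data known. Of these, 5 are of the thalamus, 3 of the habenula, 2 of the Barhl family and 4 of the Irx family. A further 8 are of the floor plate and the dopamine neurons, 7 of the hypothalamus and 5 of GABAergic neurons and the tectum. Of the 17494 genes in the deposited count table, 31 carried these symbols, 30 under the listed name and 1, Tac2, under its RefSeq synonym Tac3. Rora, Pou4f1 and En1 had no row under these symbols, so no levels are given for them. Their promoters are among those read below.

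All 71 animals were wild-type Sprague-Dawley offspring, 35 males and 36 females of 27 litters. Dams were immunised weekly before pregnancy with peptides in Freund's adjuvant, while control dams received adjuvant and saline, so exposed and control offspring share the adjuvant. The animals fall into 2 title series, which follow the separately processed sets of libraries that the methods describe. The MAR_C3 title series held 43 animals of 20 litters: 12 saline controls of 4 litters, 8 animals of 4 litters exposed to CRMP1+CRMP2 autoantibodies, 9 of 5 litters exposed to LDHA/B+CRMP1+STIP1, 6 of 3 litters exposed to CRMP1+GDA and 8 of 4 litters exposed to STIP1+NSE. The other titles held 28 animals of 7 litters, 12 controls of 3 litters and 16 animals of 4 litters exposed to LDHA/B+CRMP1+STIP1. Maternal autoantibody-related autism (MARA) is the name the labels give to the 47 exposed animals of 20 litters together. Exposure was set by the dam, so littermates are not independent, and 3 of the 4 exposures have no animals among the other titles.

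RNA came from 1 coronal slice per brain, 150 µm thick, cut through the hippocampus with the cortex and the subcortical structures beside it, whereas the design text of the series names frontal cortex and hypothalamus. In a whole slice, fewer cells of a type and less RNA per cell cannot be told apart. Libraries held 24880182 to 36234952 counts, with a median of 28439195. Levels are given as CPM, counts scaled to a common library size, and 3 counts in a library correspond to 0.0828 to 0.121 CPM, the limit that a count of 0 allows for counting error only. Low counts were mostly even, and if both mates of a read pair were counted the limit is 6 counts, or 0.166 to 0.241 CPM. Among the MAR_C3 animals 4 stood apart with low Tcf7l2 and 6 others with high Slc6a3. Values of the listed genes without them are given beside the main results they touch.

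The diencephalon forms the thalamus, the habenula and, below them, the hypothalamus, and the midbrain lies behind it. Each territory is set up by transcription factors that stay on in its neurons. TCF/LEF factors such as Tcf7l2 carry Wnt signals to DNA, GATA factors with Tal1 direct neurons to a GABAergic fate, and Foxa1, Foxa2 and Lmx1b act in the floor plate from which dopamine neurons arise. Cortex and hippocampus are built with other factors.

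Promoters were read from RefSeq (build GRCr8) for 27 of the 34 listed genes, as the 250 bases before the start. The TCF/LEF core CTTTGAT, searched on both strands, was in 1 of these 27 (3.7%) and in 1054 of all 33469 promoters (3.15%). The GATA-type motif AGATAA, also searched on both strands, was in 0 of 27 and in 3447 of all promoters (10.3%). The 3 sequences shown are those of the list's own TCF/LEF factors, Tcf7l2 and Lef1, and of Irx1, which holds the match, in capitals.
Tcf7l2, chr1:264791085-264791334, plus strand: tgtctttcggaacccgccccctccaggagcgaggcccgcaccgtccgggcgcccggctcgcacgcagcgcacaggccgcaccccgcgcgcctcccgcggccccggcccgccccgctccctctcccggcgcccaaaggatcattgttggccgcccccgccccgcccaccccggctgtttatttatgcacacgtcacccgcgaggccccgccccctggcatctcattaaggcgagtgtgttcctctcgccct
Lef1, chr2:222340463-222340712, plus strand: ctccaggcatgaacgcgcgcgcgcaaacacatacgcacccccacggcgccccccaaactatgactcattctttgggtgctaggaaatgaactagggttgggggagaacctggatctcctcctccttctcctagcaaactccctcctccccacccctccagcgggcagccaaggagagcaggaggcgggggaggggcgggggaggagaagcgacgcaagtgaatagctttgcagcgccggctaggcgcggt
Irx1, chr1:33122872-33123121, plus strand: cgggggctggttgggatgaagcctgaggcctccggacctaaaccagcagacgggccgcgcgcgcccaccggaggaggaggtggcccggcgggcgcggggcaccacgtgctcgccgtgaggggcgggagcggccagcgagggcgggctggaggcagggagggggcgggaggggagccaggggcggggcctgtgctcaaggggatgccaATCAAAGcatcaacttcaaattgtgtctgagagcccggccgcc
The capitals in Irx1 read ATCAAAG, the core on the opposite strand. These are descriptions of the letters in these windows.

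Across genes, levels were compared per exon length, as RPKM, which is CPM per kilobase of exon. In the MAR_C3 animals Tcf7l2 stood first with a mean of 95.5 ± 42.6 RPKM (SD, n = 43), followed by Lhx9 with 17.6 ± 7.24, Lef1 with 12.1 ± 4.77, Gbx2 with 9.83 ± 4.61 and Six3 with 9.20 ± 4.79. From Lhx9 down, these neighbours lay within an SD of each other. In the other titles Six3 stood first with 10.4 ± 6.09 RPKM (SD, n = 28), before Lef1 with 3.69 ± 0.790 and Tcf7l2 with 3.20 ± 1.57. Over all 71 animals the same 5 genes had the highest means: Tcf7l2 59.1, Lhx9 10.98, Six3 9.68, Lef1 8.76 and Gbx2 6.62 RPKM. The order of the levels thus differed between title series, with Tcf7l2 first in one and Six3 first in the other.

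**Figure D1:**
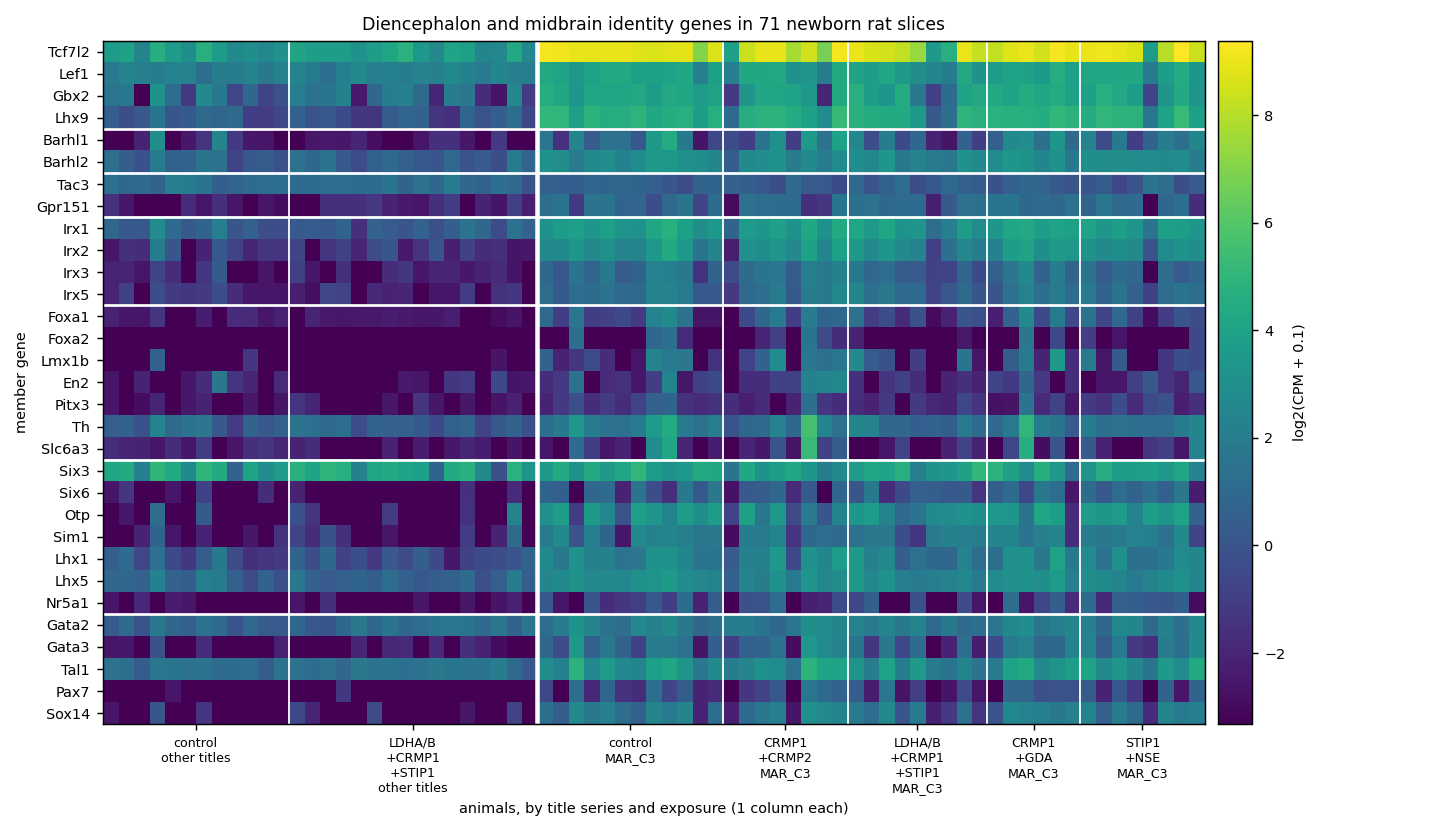
Level of the 31 genes with a row in each of the 71 animals, on a log2(CPM + 0.1) scale, by exposure and title series. Most rows are high across the MAR_C3 animals and low across the other titles, Six3 is high in both, and 4 MAR_C3 animals show low Tcf7l2.

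The largest differences in the list lay between title series, not between exposures. To see them without exposure, the 12 MAR_C3 controls were compared with the 12 other controls. Of 12089 genes tested, 21.4% were called higher in MAR_C3 and 20.2% lower at a false discovery rate (FDR) under 0.1 (edgeR quasi-likelihood test). Of the 31 listed genes 23 were tested, and 21 of these were higher and 1 lower. A gene entered the test with at least 1 CPM in 8 animals. The 13 tested genes with fewer than 8 other-title controls at 1 CPM needed MAR_C3 animals to enter. Of these, 5 had no other-title control at 1 CPM and had to be higher to enter. The calls of the 13 are thus not used as support. Of the remaining 10, 8 were higher, by 1.29 to 5.22 on the log2 scale, Tac3 was lower, and Six3 was not called.

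Of the thalamic genes, Tcf7l2, which marks developing thalamic and habenular neurons (rn7, chromosome 1, 254786091-254978966, 15 exons), had 5.34, 10.6 and 25.2 CPM as the lowest, median and highest of the other controls. In the MAR_C3 controls these were 132, 472 and 583 CPM. The 2 sets of controls did not overlap, and the log2 difference was 5.22 ± 0.29 (SE), or 37.3-fold, with an edgeR adjusted p of 1.39e-11. Lhx9, a LIM homeobox gene of thalamic neurons, ran from 0.397 to 2.97 CPM against 14.1 to 33.98 CPM, again with no overlap (log2 difference 4.30 ± 0.26). Gbx2, a homeobox gene that young thalamic neurons need, ran from 0 to 9.02 CPM against 10.1 to 24.0 CPM (2.78 ± 0.45). Lef1, another TCF/LEF factor, had medians of 4.22 and 16.2 CPM with overlap in 1 MAR_C3 control (1.93 ± 0.18). Tcf7l2 and Lef1 were at 1 CPM or more in all 12 other controls, whereas Gbx2 and Lhx9 were so in 7 and entered the test through the MAR_C3 animals.

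Of the habenular genes, Gpr151, an orphan receptor of habenular neurons, had a median of 0.0681 CPM in the other controls, with 0.247 CPM as the highest, and of 2.04 CPM in the MAR_C3 controls, with 0.348 CPM as the lowest (log2 difference 4.48 ± 0.47), and it entered the test through the MAR_C3 animals. Tac3, which encodes neurokinin B and is also made outside the habenula, was the listed gene that was lower in MAR_C3, with medians of 2.25 and 1.48 CPM and a log2 difference of −0.74 ± 0.19 (edgeR adjusted p = 0.0034). With counts summed per litter Tac3 was not called (edgeR adjusted p = 0.117).

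Barhl2, a homeobox gene of the diencephalon, had medians of 1.38 and 7.59 CPM in the other and the MAR_C3 controls with no overlap (log2 difference 2.18 ± 0.26). Barhl1, its relative in the subthalamic and mammillary region and the cerebellum, spread most among the tested genes. The SD of its log2 CPM was 2.35 among the other controls and 2.09 among the MAR_C3 controls. After it came Gbx2 (1.98), Otp (1.78), Irx2 (1.56) and Sim1 (1.38) among the other controls and Six6 (1.77), Gata3 (1.62), Otp (1.61) and Sim1 (1.57) among the MAR_C3 controls. The range of Barhl1 was 0 to 7.86 CPM against 0.0655 to 22.2 CPM, and its log2 difference of 2.57 ± 0.89 was called (edgeR adjusted p = 0.029), but not without the other-title litter RNA4 (0.121). The call was also lost with counts summed per litter (edgeR adjusted p = 0.334), with litter as a random effect (limma adjusted p = 0.134) and without the high-Slc6a3 animals (edgeR adjusted p = 0.274).

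The Irx genes are Iroquois homeobox factors of the thalamus, pretectum and midbrain. Irx1 was at 1 CPM or more in 8 other controls and was called higher in the MAR_C3 controls, while Irx2, Irx3 and Irx5 entered the test through the MAR_C3 animals. Irx1 (rn7, chromosome 1, 31294615-31300444) had medians of 1.25 and 11.7 CPM and Irx2, which lies on the same chromosome at 30660960-30666378, 0.255 and 6.42 CPM. Irx3 and Irx5, which lie on chromosome 19 at 15213041-15215317 and 14639161-14641855, had medians of 0.107 and 1.74 CPM and of 0.259 and 2.21 CPM. The log2 differences were 2.78 ± 0.32 for Irx1, 3.76 ± 0.51 for Irx2, 3.58 ± 0.53 for Irx3 and 3.14 ± 0.40 for Irx5. Irx1 and Irx5 did not overlap between the sets of controls, whereas Irx2 and Irx3 did.

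Of the hypothalamic genes, Otp and Sim1, a pair of factors that neuroendocrine neurons require, were near 0 in most other controls. Otp (rn7, chromosome 2, 26108158-26116359) was at 0 in 9 of the 12 other controls and reached 2.21 CPM, while the MAR_C3 controls ran from 0.386 over 9.14 to 14.3 CPM (log2 difference 5.19 ± 0.79). Sim1 was at 0 in 6 of the 12, with a highest value of 1.59 CPM, and its MAR_C3 median was 3.97 CPM (4.45 ± 0.68). Six6, an eye and hypothalamus homeobox gene, was at 0 in 7 of the 12 other controls and had a MAR_C3 median of 1.45 CPM (3.97 ± 0.70). Lhx1 and Lhx5, LIM homeobox genes of several diencephalic and cortical cell types, had log2 differences of 2.25 ± 0.40 and 1.87 ± 0.24. Six3 (rn7, chromosome 6, 9040114-9043336), which builds the anterior forebrain and stays on in striatal neurons, ran from 1.57 over 16.9 to 31.8 CPM in the other controls and from 9.04 over 15.04 to 32.4 CPM in the MAR_C3 controls. These ranges lay on top of each other, and the log2 difference was 0.07 ± 0.35 (edgeR adjusted p = 0.906).

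Among genes of GABAergic neurons and the tectum, Tal1 ran from 1.22 to 3.12 CPM in the other controls and from 3.28 to 28.7 CPM in the MAR_C3 controls, with no overlap (log2 difference 2.13 ± 0.30). Gata2 had medians of 1.64 and 3.51 CPM (1.29 ± 0.27). Gata3 was at 0 in 7 of the 12 other controls and had a MAR_C3 median of 1.69 CPM (4.61 ± 0.75). Sox14, a factor of thalamic and pretectal interneurons, was at 0 in 9 of the 12 and had a MAR_C3 median of 2.93 CPM (4.98 ± 0.68). Differences of genes at 0 in most other controls depend on the prior count of the fit.

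Of the floor plate and dopamine genes 1 of 7 entered this test, Th, the rate-limiting enzyme of catecholamine synthesis. Th ran from 0.376 over 1.49 to 5.14 CPM in the other controls and from 2.41 over 3.59 to 22.2 CPM in the MAR_C3 controls (log2 difference 1.72 ± 0.40, edgeR adjusted p = 0.0019). The 8 genes that did not enter were Foxa1, Foxa2, Lmx1b, En2, Pitx3, Slc6a3, Nr5a1 and Pax7. Foxa2, a forkhead factor of the floor plate, was at 0 in all 28 animals of the other titles and above 0 in 4 of the 12 MAR_C3 controls. With no filter on low counts, where 18.6% of 15593 genes were called higher and 16.4% lower, 28 of the 31 listed genes were called higher and 1, Tac3, lower. En2, with an adjusted p of 0.185, and Six3 were those not called.

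**Figure D2:**
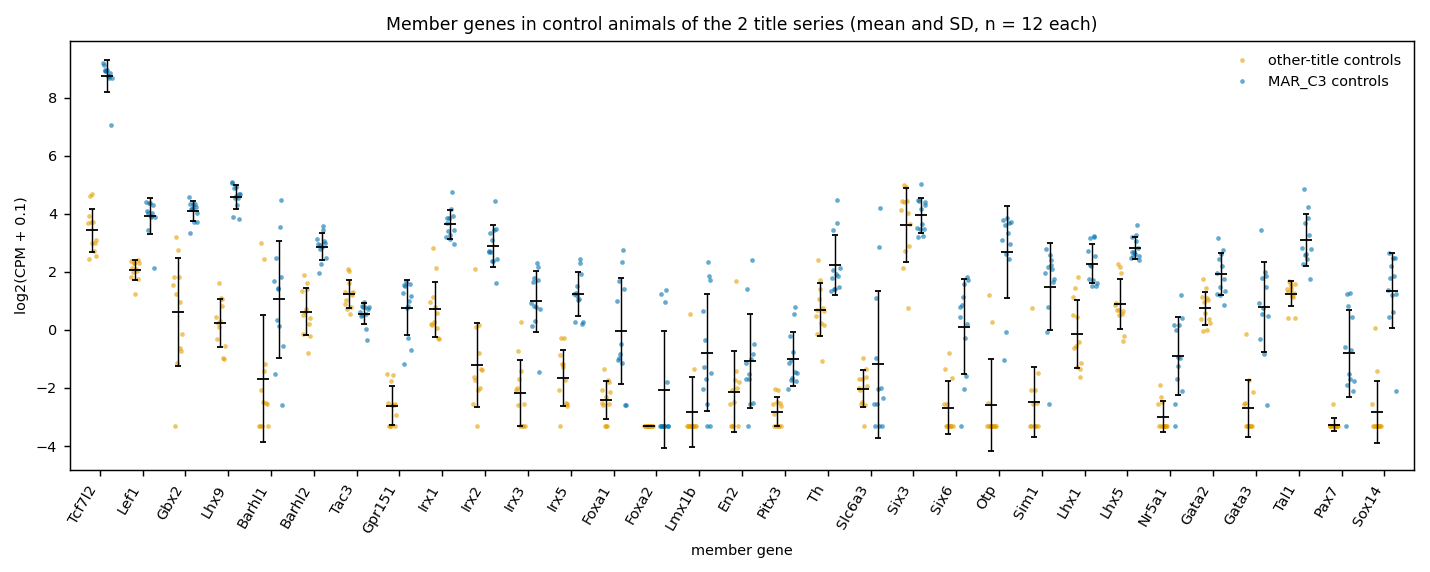
CPM of the listed genes in each of the 24 control animals, on a log2(CPM + 0.1) scale, with the 12 other-title controls beside the 12 MAR_C3 controls. Tcf7l2, Lhx9 and Gbx2 have no overlap, while the 2 sets of Six3 values cover the same range.

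Of the 10 tested genes with at least 8 other-title controls at 1 CPM, 5 had no overlap between the 2 sets of controls, all higher in MAR_C3: Tcf7l2, Barhl2, Irx1, Lhx5 and Tal1. Over all genes tested, 0.769% were higher with no overlap and 0.869% lower. Gbx2, Lhx9, Gpr151 and Irx5 did not overlap either, but they entered the test through the MAR_C3 animals. With LDHA/B+CRMP1+STIP1 animals of both title series in place of controls, where 21% of genes were called higher and 20.2% lower, 15 of 17 tested listed genes were higher and 1 lower. Some entered through the MAR_C3 animals, as did Irx2, with at most 0.962 CPM in the other-title exposed animals. The 15 were not split by how they entered, so this count supports nothing. Leaving out 1 control litter at a time gave 15 to 22 called listed genes, beside 3760 to 5056 called over all genes. The 15 were found without litter 9_25, where 16 listed genes entered the test. These counts also include genes that entered through the MAR_C3 animals.

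Markers of other regions moved with this difference. Of other thalamus and habenula genes 10 were higher in the MAR_C3 controls and 2 lower of 15 tested, with the smallest p for Ntng1 (log2 difference 2.57) and Prox1 (2.05), and of other midbrain genes 8 were higher and 2 lower of 10, led by Slc18a2 (1.56) and Lmx1a (4.37). Of other hypothalamus genes 7 were higher and 2 lower of 14, led by Avp (3.48) and Nkx2-2 (0.93). Of 7 striatum markers 6 were lower, among them Drd1 (−1.89), of 9 zona incerta and prethalamus genes 6 were lower and 1 higher, led by Meis2 (−1.56) and Dlx2 (−1.03), and of 11 cortex and hippocampus genes 7 were lower and 3 higher, led by Bcl11b (−1.22) and Tbr1 (−0.85). All 7 choroid plexus genes were higher, led by Clic6 (5.35) and F5 (2.66). Lmx1a, Clic6 and F5 had medians of 0.156, 0.298 and 0.509 CPM in the other titles. Such genes entered the test largely through the MAR_C3 animals, so their calls support nothing. The counts of these lists were not split by how genes entered. The summed level of the striatum list was 168 to 800 CPM in the other controls and 108 to 269 CPM in the MAR_C3 controls. The choroid plexus list was at 4.46 to 115 CPM against 132 to 2824 CPM, and the cortex and hippocampus list at 1672 to 2793 CPM against 1267 to 1884 CPM.

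Of the remaining lists, 3 of 3 mast cell, 2 of 3 Cajal-Retzius, 2 of 3 cerebellum (of which Barhl1 is also a listed gene), 1 of 3 blood and erythroid, 1 of 1 pineal and 1 of 1 pituitary genes were higher. Of 7 endothelium genes 2 were higher and 1 lower, and no hindbrain and spinal cord gene was tested. The counts of these lists were not split by entry either, and the same limit holds for them. In the other midbrain list, Pax2, Pax3, Pax5 and Pou4f2 had medians of 0 CPM in the other titles and of 0.115, 0.626, 0.0971 and 0.0707 CPM in the MAR_C3 animals. Where the slices were cut, how they were processed and when they were sequenced cannot be told apart between the title series, and the part of other regions in the values of the listed genes was not tested.

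Shares of the variance of log2 CPM over the 71 animals were taken from sums of squares. They were not adjusted for the number of groups at each level, which is far larger for litters and animals than for exposures. The shares of exposure, litter and animal are thus not ranked against each other. Title series held a median of 58.3% over the 31 genes (0.0238% to 79.9%), exposure within a title series 3.12% (1.42% to 9.83%), litter within exposure 13.8% (4.77% to 33.8%) and animals within a litter 25.8% (7.32% to 67.0%). Tcf7l2 had 77.6% between title series and 7.32% within litters. Six3 had 0.0238% and 67.0%, and Slc6a3, the dopamine transporter, 7.67% and 59.9%. The dopamine genes and Six3 thus varied mostly among animals of the same title series, and littermates were often unlike.

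In 4 MAR_C3 animals Tcf7l2 lay within the range of the other titles, at 11.2 and 25.3 CPM in the female and the male of LDHA/B+CRMP1+STIP1 litter 9_4, 13.0 CPM in a female of STIP1+NSE litter 9_2 and 15.1 CPM in a female of CRMP1+CRMP2 litter 9_1. The next lowest MAR_C3 animal had 110 CPM. The littermate in litter 9_1 had 325 CPM and that in 9_2 had 261 CPM, so the low value was not shared by these litters. Of the 31 listed genes, 30 were at or below the highest other-title value in the female of 9_1, 23 in that of 9_2, and 24 and 27 in the male and the female of 9_4, against 3 to 20 in the other 39 MAR_C3 animals. Hypothalamic genes were not all low. Otp was at 13.7 CPM in the female of 9_2 and at 6.65 and 7.01 CPM in litter 9_4, above every other-title value, and at 0.498 CPM in the female of 9_1.

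Ttr, the transthyretin gene of the choroid plexus, was at 1618 to 3111 CPM in these 4 animals, above every other-title animal (at most 533 CPM). The summed zona incerta and prethalamus list was at 276 to 371 CPM, below the 464 to 987 CPM of the other titles. Over all 43 MAR_C3 animals this list had a median of 372 CPM and at most 449 CPM, so it was low throughout this title series. The summed striatum list was at 142 to 227 CPM against 168 to 800 CPM, with 2 of the 4 animals inside the other-title range. Over all 43 MAR_C3 animals the striatum list had a median of 139 CPM and at most 338 CPM. The cortex and hippocampus list was at 1479 to 2305 CPM against 1672 to 2856 CPM, with 3 of the 4 inside. The summed list of other thalamus and habenula genes was at 479 to 627 CPM, within or close to the 459 to 625 CPM of the other titles. The part of the cutting level in these values was not tested.

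Over 1.5 CPM of Slc6a3 was found in 6 animals, all MAR_C3, 4 males and 2 females of 5 litters. A CRMP1+CRMP2 male of litter 9_16 had 37.4 CPM of Slc6a3 and 50.0 CPM of Th, and a CRMP1+GDA female of litter 9_3 had 23.9 and 32.6 CPM. A pair of control males of litter 9_25 had 18.1 and 7.11 CPM of Slc6a3 and 22.2 and 12.6 CPM of Th. A STIP1+NSE male of litter 9_7 had 4.88 and 5.58 CPM, and a control female of litter 9_10 had 2.05 and 10.8 CPM. The highest Slc6a3 among all other animals was 1.26 CPM. Controls and exposed animals are thus both among the 6, and Foxa1 and Foxa2, which dopamine neurons keep, were at 0.706 to 6.77 and 0.605 to 3.22 CPM in them. In the other animals Foxa1 and Foxa2 reached 3.59 and 0.684 CPM. Lmx1b was at 0.309 to 4.98 CPM in the 6 and En2 at 0.393 to 5.21 CPM. Both were higher outside the 6, at up to 10.9 and 5.84 CPM. Pitx3 was at 0.235 to 2.78 CPM in the 6 and reached 0.798 CPM in the others. Whether these slices held the ventral midbrain was not tested.

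**Figure D3:**
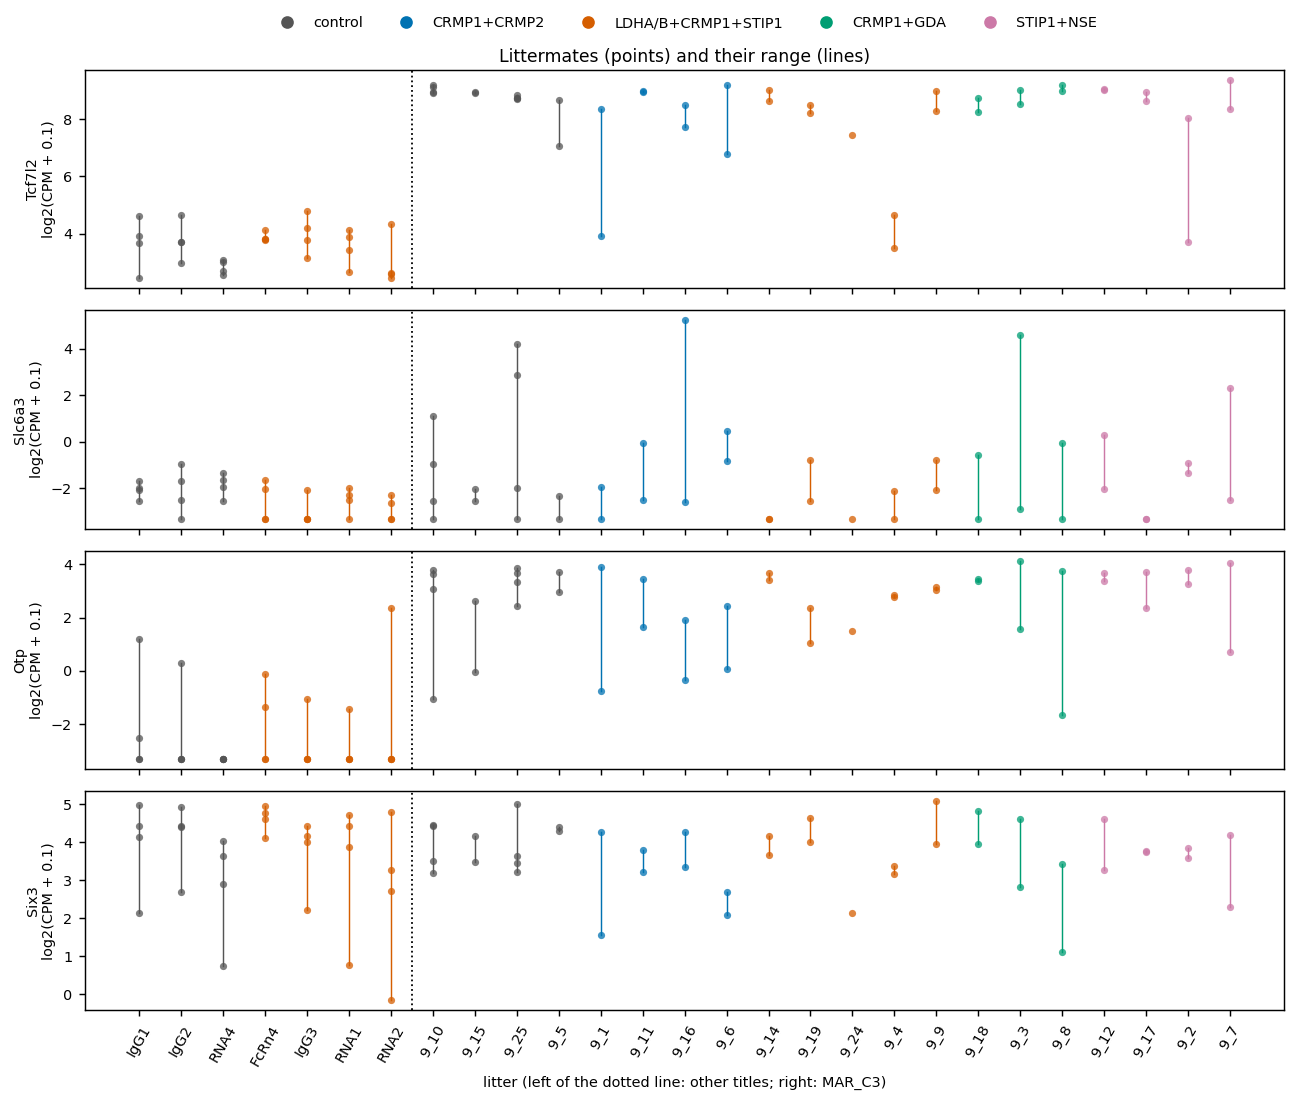
Tcf7l2, Slc6a3, Otp and Six3 in each animal of the 27 litters, on a log2(CPM + 0.1) scale, with littermates on 1 vertical line. The low Tcf7l2 animals of litters 9_1 and 9_2 lie far below their littermates, and high Slc6a3 occurs in 5 litters.

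Litters of the same exposure and title series were compared next. Of 12477 genes tested, 56.3% differed between litters (FDR < 0.1), and of 29 listed genes 8 did: Th (edgeR adjusted p = 0.0012), Slc6a3 (0.0049), Foxa1 (0.0135), Tac3 (0.0142), Tcf7l2 (0.0291), Gata2 (0.0653), En2 (0.0684) and Lhx9 (0.0686). The share of listed genes was below that of all genes. Without the 4 low-Tcf7l2 animals 5 genes were called, and Tcf7l2 (0.345), Lhx9 (0.935) and En2 (0.147) were not among them. Without the 6 high-Slc6a3 animals 6 were called. The shares of all genes in these fits without animals are not given here, so the counts are not a result about the list.

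Exposure to autoantibodies as 1 group, the 47 MARA animals against the 24 controls with 1 surrogate variable, called 0 of 29 tested listed genes in edgeR and 0 in DESeq2, beside 0.0321% of 12477 genes in edgeR. At an unadjusted p under 0.05, 1 listed gene passed, beside 10.3% of all genes. It was Barhl1, with a log2 difference of −1.22 ± 0.43 (unadjusted p = 0.0055, edgeR adjusted p = 0.342), with medians of 0.461 CPM in controls and 0.685 CPM in MARA animals over both title series, and −0.17 ± 0.56 within the MAR_C3 animals. Next came Gata2 with 0.26 ± 0.15 (unadjusted p = 0.0945) and Lhx5 with −0.16 ± 0.11 (0.148). The median over the 29 genes was −0.07, beside 0.00 over all genes. Of the other lists 1 pineal gene was called.

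The 4 exposures were then each set against the same 24 controls, so their values are not independent of each other. For CRMP1+CRMP2, 11.4% of 12691 genes were called, and 0 of 31 listed genes in edgeR and 0 in DESeq2. In this fit 4 listed genes passed an unadjusted p under 0.05, beside 24.4% of all genes. Irx3 had a log2 difference of 0.96 ± 0.39 (edgeR adjusted p = 0.132), Lmx1b of 1.47 ± 0.71 (0.199), Irx5 of 0.64 ± 0.31 (0.201) and Six3 of −0.83 ± 0.37 (0.170). Irx3 ran from 0.665 over 3.05 to 4.65 CPM in the 8 exposed animals and from 0.262 over 1.74 to 4.82 CPM in the MAR_C3 controls. Six3 ran from 2.85 over 9.59 to 19.3 CPM against 9.04 over 15.04 to 32.4 CPM. Both genes overlapped between the groups.

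These values turned on the samples and covariates. The median over the 31 genes was 0.37, beside 0.01 over all genes, but −0.26 with title series and sex as covariates and −0.25 within the MAR_C3 animals, with 0 genes called in either fit. Without the high-Slc6a3 animals, where 7.73% of genes were called higher and 8.92% lower, 9 listed genes were called higher and 1 lower of 28 tested. The largest of these differences were En2 with 2.56 ± 0.84 (edgeR adjusted p = 0.0557) and Gata3 with 2.29 ± 0.64 (0.0302), followed by Lmx1b (2.09), Sox14 (1.96), Pax7 (1.90), Irx3 (1.46), Irx5 (1.03), Tal1 (0.82) and Gata2 (0.64), and Six3 was lower (−1.01). The animals left out were picked by a listed gene, Slc6a3, so these calls support nothing. Among the controls left out were those with the highest Gata3 (10.7 CPM), En2 (5.21), Lmx1b (4.98) and Irx3 (4.82) of all controls. The exposed male left out had the highest Gata3 of its group, 10.7 CPM. Within the MAR_C3 animals, all of them kept, Gata3 was at 0.13, Irx3 at 0.12, Irx5 at −0.09, Sox14 at −0.11, Tal1 at −0.05 and Six3 at −0.64 (unadjusted p = 0.0706). Without control litter 9_10, 6 listed genes were called higher, without control litter 9_25, 4 higher and 1 lower, and without exposed litter 9_16, 2 lower. Over all genes, 41 to 2889 were called with 1 litter left out. The counts of listed genes are thus not a result about the list.

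Of the other lists, all 7 choroid plexus genes, 6 of 6 pineal genes, 4 of 6 mast cell genes and 4 of 16 other midbrain genes were called higher for CRMP1+CRMP2. These calls turned on the covariates and the animals: with title series and sex as covariates 5 pineal genes and 0 of the choroid plexus, mast cell and other midbrain genes were called, and with counts summed per litter or litter as a random effect 0 of all these. Without the 4 low-Tcf7l2 animals 0 choroid plexus, 2 of 3 pineal, 1 mast cell and 3 other midbrain genes were called. Over all 12691 genes, 0 were called with counts summed per litter and 33 with litter as a random effect. Of other hypothalamus genes 2 were higher and 2 lower of 19, and of other thalamus and habenula genes 2 were higher and 1 lower of 17. Of zona incerta and prethalamus genes 2 were lower of 9, 1 of 3 Cajal-Retzius and 1 of 11 cortex and hippocampus genes were higher, and 0 were called of the blood, cerebellum, endothelium, hindbrain, pituitary and striatum lists. The summed pineal list was at 3.87 to 258 CPM in the exposed animals, with a median of 5.69 CPM, and at 2.69 to 6.91 CPM in the MAR_C3 controls. The part of these tissues in the values of the listed genes was not tested.

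For LDHA/B+CRMP1+STIP1, the exposure with animals in both title series, 0.0157% of 12700 genes were called, and 0 of 31 listed genes in edgeR and 0 in DESeq2. An unadjusted p under 0.05 was reached by 7 listed genes, 6 lower and 1 higher, beside 7.17% of all genes. The lower ones were genes of the floor plate and dopamine neurons and Barhl1. Foxa2, Slc6a3 and En2 reached at most 0.135, 0.485 and 0.596 CPM in the exposed animals. These 3 genes could enter the test only through the controls, so their lower values support nothing. Foxa2 had a log2 difference of −3.84 ± 0.91 (edgeR adjusted p = 0.136), Slc6a3 of −2.55 ± 0.72 (0.266), Barhl1 of −1.96 ± 0.57 (0.298), En2 of −1.87 ± 0.59 (0.360), Foxa1 of −1.05 ± 0.45 (0.598) and Th of −0.55 ± 0.24 (0.598), while Otp was at 0.93 ± 0.42 (0.637).

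Foxa2 was at 0 in 23 of the 25 exposed animals, with 0.135 CPM as the highest, and at 0 in 20 of the 24 controls, with 2.46 CPM as the highest. The difference thus rested on 4 MAR_C3 controls. Foxa2 was called without control litter 9_5 (edgeR adjusted p = 0.0347), without exposed litter 9_9 (0.0803) and without control litter IgG1 (0.0446). Slc6a3 reached 0.485 CPM in the exposed animals and 18.1 CPM in the controls. Without the high-Slc6a3 animals 2 listed genes passed an unadjusted p under 0.05. Within the MAR_C3 animals Foxa2 was at −4.32 ± 1.41 and Slc6a3 at −3.50 ± 1.27, and Otp was at −0.30 ± 0.43. Of the other lists 1 hindbrain and spinal cord gene was called, higher, and 0 of the rest.

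An interaction term tested whether the difference for this exposure was the same in both title series. Of 12323 genes 0.0% were called, and 0 of 24 listed genes in edgeR and 0 in DESeq2. At an unadjusted p under 0.05, 4 listed genes passed, beside 2.89% of all genes: Lmx1b (difference of log2 differences, MAR_C3 minus other titles, 4.37 ± 1.81), Tal1 (−0.86 ± 0.39), Lef1 (−0.60 ± 0.28) and Barhl1 (2.54 ± 1.25). With Lmx1b at 0 in 10 of the 12 other controls and in 15 of the 16 other exposed animals, its value rests on few counts.

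For CRMP1+GDA, 0.0% of 12641 genes were called, and 0 of 31 listed genes in edgeR and 0 in DESeq2. At an unadjusted p under 0.05, 0 listed genes passed in edgeR and 1 in DESeq2, beside 3.65% of all genes in edgeR. The smallest p belonged to Otp with −0.97 ± 0.50 (unadjusted p = 0.0609), Barhl2 with −0.33 ± 0.18 (0.0709) and Sim1 with −0.66 ± 0.49 (0.188). Otp ran from 0.221 over 10.5 to 17.4 CPM in the 6 exposed animals and overlapped the MAR_C3 controls, within which its log2 difference was 0.02 ± 0.65. No gene of the other lists was called.

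For STIP1+NSE, 0.0474% of 12660 genes were called, and 0 of 31 listed genes in edgeR and 0 in DESeq2. At an unadjusted p under 0.05, 1 listed gene passed, beside 3.19% of all genes: Th, with −1.01 ± 0.37 (unadjusted p = 0.0101, edgeR adjusted p = 1.00). Th ran from 2.24 over 2.55 to 5.58 CPM in the 8 exposed animals and from 2.41 over 3.59 to 22.2 CPM in the MAR_C3 controls. Without the high-Slc6a3 animals its log2 difference was −0.41 (unadjusted p = 0.12). Foxa2 followed with −1.92 ± 1.13 (0.0991) and Lhx5 with −0.32 ± 0.22 (0.146). Foxa2 reached at most 0.605 CPM in the exposed animals and could enter this test only through the controls. Of the other lists 3 pineal genes were called, higher, and 0 of the rest.

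**Figure D4:**
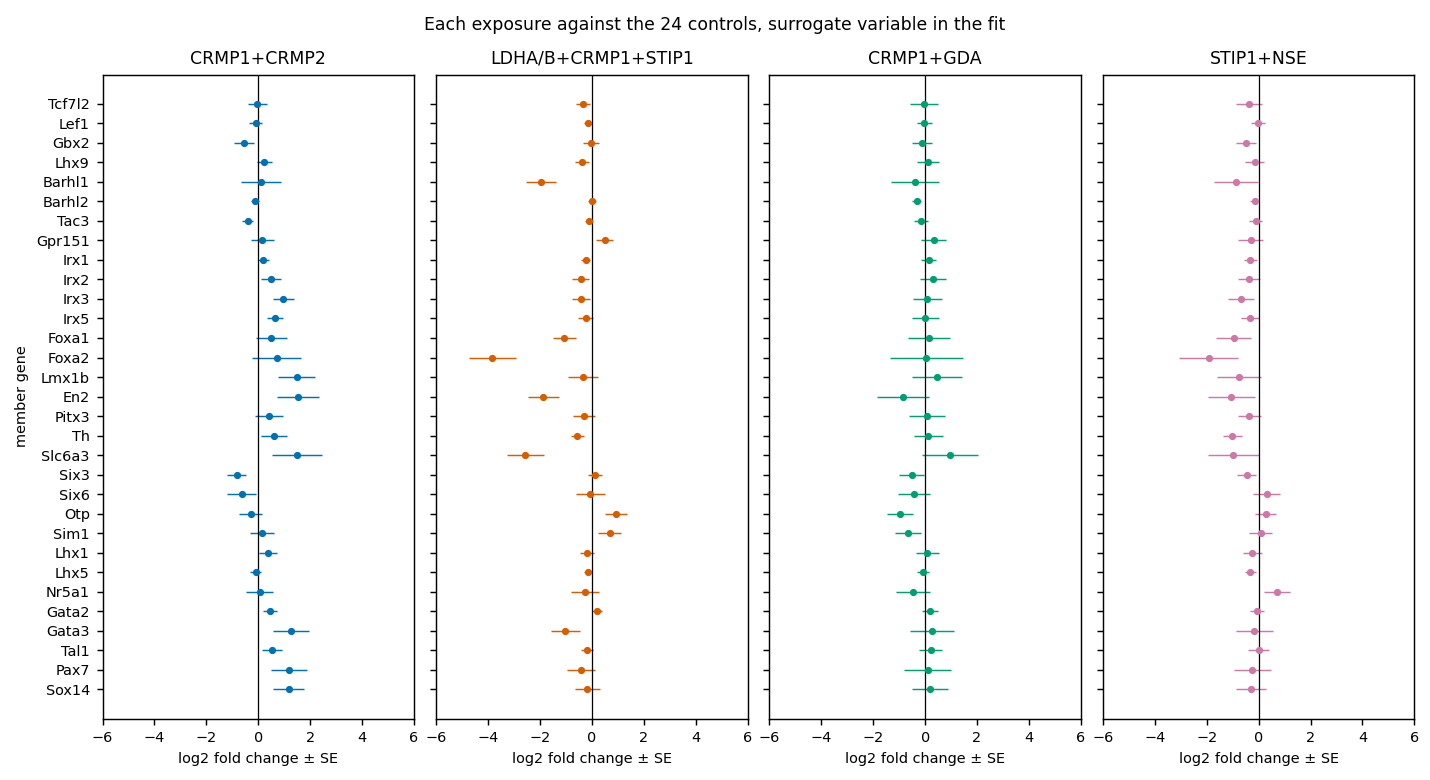
Log2 difference ± SE (edgeR) of each of the 31 genes for each of the 4 exposures against the same 24 controls. None passed FDR < 0.1 in these fits, and the widest error bars belong to Foxa2, Slc6a3 and other genes near 0 in most animals.

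Among the 5 groups of the MAR_C3 title series, with no other-title animal in the fit, 0.0% of 12384 genes differed, and 0 of 29 listed genes in edgeR and 0 in DESeq2. Before adjustment, 2 listed genes passed a p under 0.05 in edgeR and 3 in DESeq2, beside 8.0% of all genes in edgeR. These were Slc6a3 (unadjusted p = 0.0075) and En2 (0.0285), and Th followed (0.0702). Without the high-Slc6a3 animals 0 passed.

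Between the sexes, 0.0641% of 12477 genes were called, and 0 of 29 listed genes in edgeR and 0 in DESeq2. Before adjustment, 2 passed a p under 0.05 in edgeR and 5 in DESeq2, all higher in males, beside 4.69% of all genes in edgeR. Slc6a3 had a log2 difference (males minus females) of 1.89 ± 0.76 (unadjusted p = 0.0160), En2 of 1.05 ± 0.51 (0.0423) and Irx1 of 0.36 ± 0.18 (0.0576). Without the high-Slc6a3 animals 0 listed genes passed a p under 0.05, and Slc6a3 and En2 did not enter the test. With litter in place of exposure and title series, where males and females of a litter are compared, 0 of 29 listed genes were called, and the differences were 0.99 ± 0.78 for Slc6a3 (unadjusted p = 0.209) and 1.02 ± 0.58 for En2 (0.0829).

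Pairs of listed genes were correlated over litter means of log2 CPM, within each title series. Of 18 pairs chosen by role 15 had both genes in the table. This gave 29 relations, since Foxa2 was at 0 in every other-title litter, and p-values were adjusted over these (permutation test, two-sided, exact for the 7 other-title litters). In the 20 MAR_C3 litters 12 of 15 relations had an adjusted p of r under 0.05, and 14 had a positive r. The smallest p that the 100000 resamples can give is 1e-05.

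Tcf7l2 and Lhx9 had an r of 0.98 and a rho of 0.82 (permutation adjusted p = 7.25e-05 and 5.8e-05), and an r of 0.96 without the 2 litters farthest from the median. Without the 3 litters that hold the low-Tcf7l2 animals the r was 0.90. Tcf7l2 with Lef1 had an r of 0.88, and 0.93 without those 3 litters, and Tcf7l2 with Gbx2 had 0.89 and 0.73. Tcf7l2 with Gpr151 fell from an r of 0.79 to 0.34, and Tcf7l2 with Gata3 from 0.68 to 0.24, so these relations rest on the 3 litters. Irx1 and Irx2, both on chromosome 1, had an r of 0.98 and a rho of 0.93, and 0.94 without the 3 litters.

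Gata3 and Tal1, which act together in GABAergic neurons, had an r of 0.92 and a rho of 0.90. Foxa1 with Foxa2 had an r of 0.80, Otp with Sim1 0.80, Th with Slc6a3 0.70, Lhx1 with Lhx5 0.66 and Gata2 with Gata3 0.51, for the last of which rho did not pass (permutation adjusted p = 0.118). Without the 5 litters that hold the high-Slc6a3 animals, Th with Slc6a3 had an r of 0.23 (permutation p = 0.4, n = 15 litters), so this relation rests on those litters, and Foxa1 with Foxa2 had 0.77. Relations with an adjusted p of r above 0.05 were those of Tcf7l2 with Otp and Six3 and of Six3 with Six6. Tcf7l2 with Otp had an r of −0.02 (permutation adjusted p = 0.956) and Tcf7l2 with Six3 of 0.23 (0.476), and Six3 with Six6 had 0.30 (0.333).

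In the 7 other-title litters 3 of 14 relations had an adjusted p of r under 0.05: Tcf7l2 with Six3 (r = 0.87, exact adjusted p = 0.0331), Lhx1 with Lhx5 (0.84, 0.0398) and Tcf7l2 with Gbx2 (0.82, 0.0495). None of the 3 had an adjusted p of rho under 0.05, and without the 2 litters farthest from the median the r was 0.46, 0.54 and 0.33. Over the 28 other-title animals, where littermates are not independent, the r was 0.78, 0.55 and 0.89. So few litters cannot tell whether these relations rest on those 2. Tcf7l2 with Lhx9 was at 0.16 there (exact adjusted p = 0.757). The difference in r between title series was not tested.

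**Figure D5:**
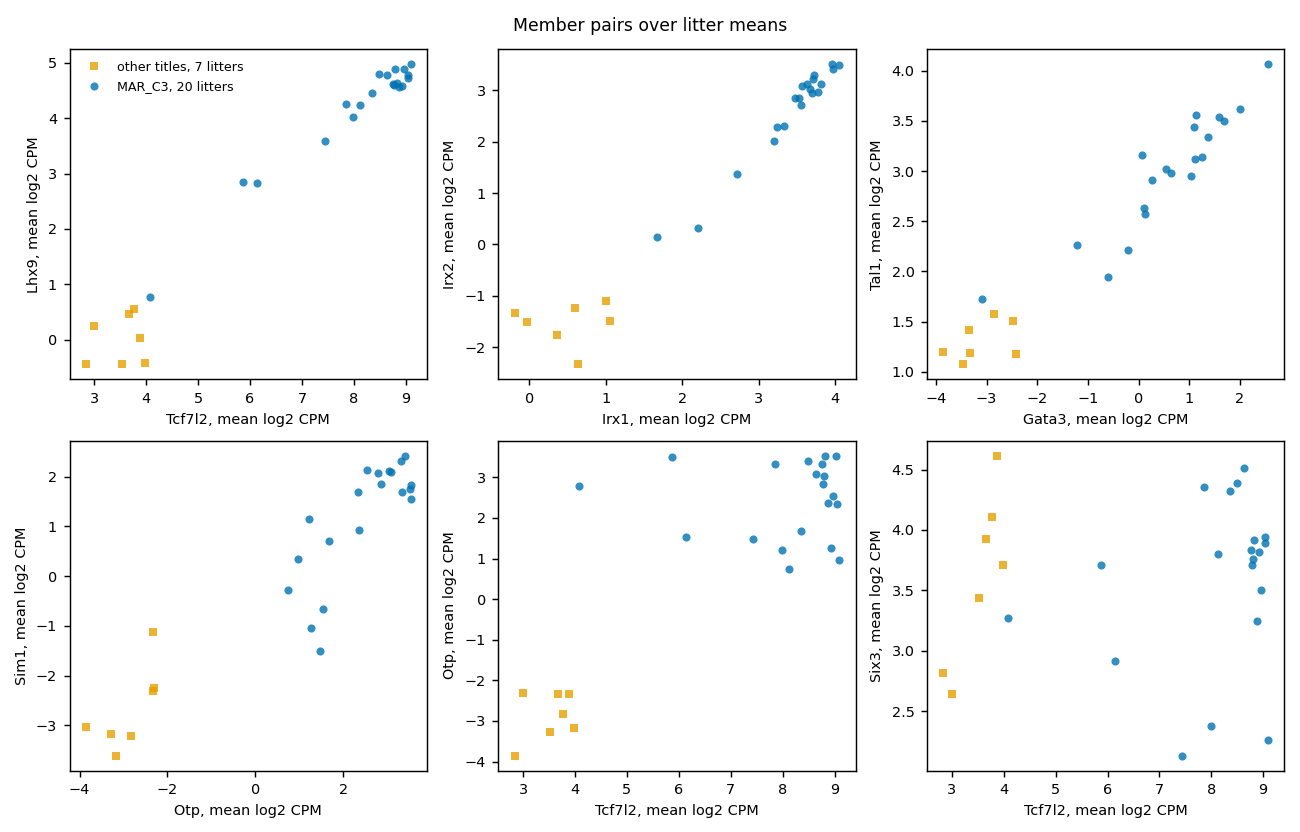
Mean log2 CPM per litter of 6 pairs of listed genes, 1 point per litter, with the 20 MAR_C3 and the 7 other-title litters marked apart. Tcf7l2 rises with Lhx9 and Irx1 with Irx2 over the MAR_C3 litters, while Tcf7l2 shows no such relation with Otp or Six3 over these litters.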

How the data were processed

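The authors extracted RNA, made poly-A libraries and deposited counts per gene, from paired reads aligned to the rat build rn7 with STAR 2.5.4b and counted with featureCounts. Whether strand was used is not given in the sources used here. Of the counts from 1 to 9, 74.5% were even, so low counts step by 2. The labels gave each animal's exposure, dam and sex, and 0 sample columns were left unused. The members and gene lists were chosen with earlier results of these data known.

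Tests were run in R 4.3.3 with edgeR 4.0.16 (TMM, quasi-likelihood, prior count 2) over all genes with at least 1 CPM in 8 samples, or over 1 CPM in 2 samples for a single exposure, with Benjamini-Hochberg adjustment and FDR < 0.1. Exposure fits held 1 surrogate variable (sva 3.50.0). Alternatives were DESeq2 1.42.0, other covariates and filters, litter sums and litters as a random effect (limma 3.58.1). Those that leave out animals or litters by Tcf7l2 or Slc6a3, or use exposed animals for controls, were chosen after seeing the data. The pipeline was tested on simulated data. Animals of 1 group are separate pups, with littermates sharing a dam.

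The named genes are all listed genes by role, in full those called or, where none was called, the 3 with the smallest p, the 5 with the highest RPKM, the 5 tested genes with the largest SD among the controls of a title series, and the 2 genes of other lists with the smallest p, of which 1 is not reported here.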

Additional observations from a re-analysis of the deposited data

Results flagged for a closer look

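In 25 of 124 groups of a listed gene the highest or lowest animal lay further from its neighbour than Dixon's 95% critical value allows, on the log2 CPM scale. Chance flags about 1 group in 20, and the values share animals.

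In the STIP1+NSE female of litter 9_2 the lowest values of its group were Tcf7l2 at 13.0 CPM, Lef1 at 3.81 CPM, Gbx2 at 0.526 CPM, Lhx9 at 3.12 CPM, Irx1 at 2.76 CPM, Irx2 at 0.855 CPM, Irx3 at 0.0 CPM, Irx5 at 0.46 CPM and Sox14 at 0.197 CPM. In the CRMP1+CRMP2 female of litter 9_1 they were Tcf7l2 at 15.1 CPM, Barhl2 at 1.25 CPM, Irx1 at 1.61 CPM and Irx2 at 0.111 CPM. In the LDHA/B+CRMP1+STIP1 female of litter 9_4 they were Gpr151 at 0.115 CPM and Irx2 at 0.432 CPM.

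In the CRMP1+CRMP2 male of litter 9_16 the highest values of its group were Slc6a3 at 37.4 CPM, Th at 50.0 CPM and Pitx3 at 2.4 CPM, and in the CRMP1+GDA female of litter 9_3 Th was at 32.6 CPM. Low values were Barhl2 at 4.14 CPM, Six6 at 0.101 CPM and Sim1 at 0.504 CPM in the STIP1+NSE male of litter 9_7, Sim1 at 0.221 CPM in a CRMP1+GDA male of litter 9_8, and Pax7 at 0.0 CPM and Sox14 at 0.882 CPM in a CRMP1+GDA female of litter 9_18.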

How the results depend on the processing

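Of the counts and relations recomputed under an alternative, 164 stayed within 1.5 times their value and 15 did not. With an unadjusted p under 0.05 in place of FDR < 0.1, the listed genes called went from 0 to 1 for MARA, 4 for CRMP1+CRMP2, 7 for LDHA/B+CRMP1+STIP1, 1 for STIP1+NSE, 4 for the interaction, 2 among the MAR_C3 groups and 2 between the sexes. Without the high-Slc6a3 animals 10 were called for CRMP1+CRMP2, and without the low-Tcf7l2 animals 5 between litters, in place of 8. Both sets of animals were picked by a listed gene, so these counts support nothing. Leaving out 1 litter at a time gave 0 to 6 listed genes called for CRMP1+CRMP2 and 0 to 1 for LDHA/B+CRMP1+STIP1. It gave 0 for the other exposures and for MARA. Between the title series it gave 15 to 22, where fewer genes entered the test without a MAR_C3 litter. Over all genes, 3760 to 5056 were called between the title series in these fits and 0 to 44 for LDHA/B+CRMP1+STIP1. Of 308 recomputed calls between title series 5 were lost. These were Barhl1 with counts summed per litter, with litter as a random effect, without litter RNA4 and without the high-Slc6a3 animals, and Tac3 with counts summed per litter. Genes that did not enter a fit are not among the 308. Calls of genes that entered through the MAR_C3 animals are, so this count supports nothing. Calls of CRMP1+CRMP2 over all genes went from 1445 to 0 with counts summed per litter and 33 with litter as a random effect, and ranged from 41 to 2889 with 1 litter left out. Genes at 0 in most animals, such as Foxa2, rest on few counts. The median of the listed genes for CRMP1+CRMP2 turned from 0.37 to −0.26 with title series and sex as covariates, and 1 MAR_C3 and 3 other-title relations, none with an adjusted p under 0.05, changed the sign of r without the 2 farthest litters. No paired analysis was possible because the labels give no replicate numbers shared between exposure groups. Males and females do share litters, and with litter in place of exposure and title series 0 listed genes were called between the sexes.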
